A study of Mus musculus with 6 samples.

Results

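The 9 genes described here encode the CD3 chains of the T cell receptor and the first enzymes and adaptors that act when the receptor is engaged: Cd3d, Cd3e, Cd3g, Cd247, Lck, Zap70, Lat, Lcp2 and Plcg1. They were taken by gene symbol from the 16448 genes of the authors' deposited comparison, all 9 were found there, and all 9 passed the filter on low counts in a test of 13039 genes. RNA was sequenced from CD4+CD8+ double-positive thymocytes sorted from the thymus of C57BL/6 mice, in 3 libraries from Mettl14fl/fl; CD4-Cre+ mice (KO) and 3 libraries from WT littermate controls. Whether the WT mice carried the floxed allele or Cre, the ages of the mice, and whether each library came from a separate mouse are not given in the labels. The p-values therefore reflect library-to-library spread alone, which may be technical. CD4-Cre is driven by Cd4 regulatory sequence and acts in thymocytes from about the double-positive stage on. The question the series title raises is whether loss of Mettl14, a subunit of the enzyme that writes N6-methyladenosine on RNA, alters T cell receptor signalling.

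The alpha and beta chains of the receptor bind antigen but cannot signal. They are carried to the cell surface and linked to the cell interior by the CD3 delta, epsilon and gamma chains and by the zeta chain, whose tails hold the tyrosine motifs phosphorylated by the Src-family kinase Lck. The Syk-family kinase Zap70 docks on these tyrosines and phosphorylates the membrane adaptor Lat and the cytosolic adaptor SLP-76, the product of Lcp2. The assembled adaptors bring in the phospholipase Plcg1, which releases the messengers that open calcium stores and activate Ras and protein kinase C. In double-positive thymocytes this relay sets positive and negative selection.

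Counts assigned to genes ranged from 29717056 to 32334325 in KO and from 29500254 to 33377056 in WT libraries. Mettl14 was at 42.2, 40.3 and 36.4 CPM in KO and 52.1, 58.8 and 55.8 CPM in WT libraries. CPM are counts scaled to a common library size with TMM factors, which correct for differences in library composition. Every KO library lay below every WT library, and Mettl14 had a log2 fold change (KO minus WT, as throughout) of -0.49, but it did not pass over all genes in edgeR (adjusted p = 0.289), while DESeq2 gave an adjusted p of 0.00417. The floxed exons are not named in the labels, so RNA from outside the deleted part can be counted. All 8 double-positive markers read here were detected (Rag1, Rag2, Dntt, Arpp21, Cd1d1, Cd4, Cd8a and Cd8b1), with summed levels of 15203 to 16037 CPM in KO and 14564 to 16165 CPM in WT libraries.

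None of the 9 genes differed between the genotypes beyond the spread between libraries. In edgeR's quasi-likelihood test 0 of 9 passed an adjusted p of 0.05, where 0.0383% of all tested genes did, and 0 of 9 had an unadjusted p under 0.05, against 6.72% of all genes. DESeq2 called 0 of 9 (0.733% of the genes it tested) and had 0 of 9 at an unadjusted p under 0.05 (5.12%). With limma-voom 0 of 9 were called (0.0537%) and 0 of 9 had an unadjusted p under 0.05 (6.82%). The authors' deposited table lists 0.762% of genes with an adjusted p under 0.05, and none of the 9 is among them. The groups overlapped for all 9 genes. Over all tested genes they did not overlap for 12.6%, with every KO library above every WT library for 6.59% and below for 5.97%. The fitted differences ran from -0.08 to 0.15 on the log2 scale, with a median of 0.05 (all tested genes: -0.004), and 8 of 9 lay above 0, where 48.9% of all genes did. Upper-quartile scaling and scaling by library total alone turned Cd3g and Plcg1 below 0. They also lowered the median of all tested genes, to -0.027 and -0.032. In absolute size the median difference of the 9 was 0.067, against 0.069 over the 2083 tested genes whose average log2 CPM was 7 or more. The genes had from 7276 (Zap70) to 84922 (Lck) counts per library. No 95% interval reached below -0.29 (Lcp2) or above 0.32 (Lat) on the log2 scale. In bulk RNA, fewer cells of a type and less RNA per cell cannot be told apart.

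**Figure D1:**
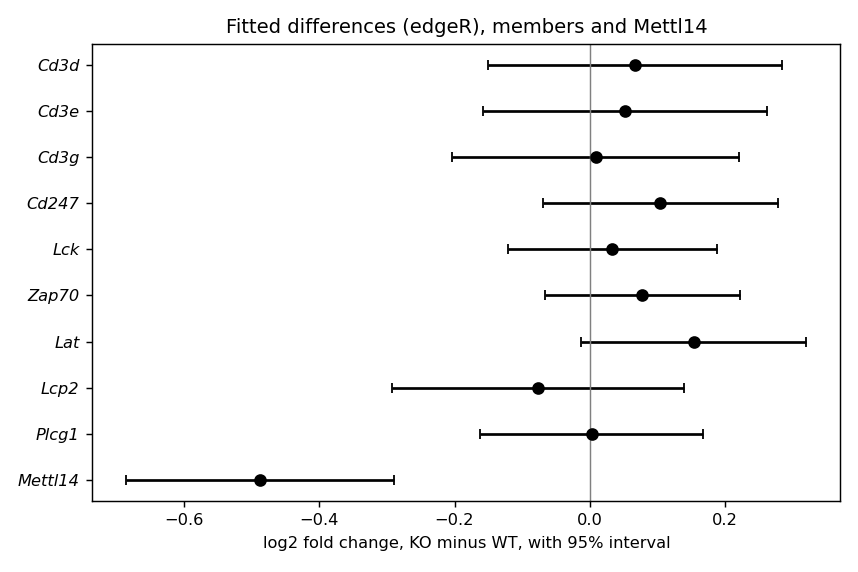
Fitted log2 fold change (KO minus WT, edgeR) with its 95% interval for the 9 genes and for Mettl14. The intervals of the 9 genes all include 0, and that of Mettl14 runs from -0.69 to -0.29.

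The genes of CD3 gamma, delta and epsilon lie side by side on chromosome 9 of mm10. Cd3g (44969572 to 44980431, minus strand) and Cd3d (44981793 to 44987052, plus strand) point away from each other with 1361 bases between them. Cd3e (44998743 to 45009590, minus strand) starts 11690 bases beyond the end of Cd3d. All 3 encode single-pass membrane chains with an immunoglobulin-like domain. Their promoter windows are shown because the 3 genes are neighbours. Each runs from 250 bases before to 50 bases after the start site (RefSeq, GRCm38.p6) and is written 5′ to 3′ on the strand of its gene, and capitals mark AGGAAG or its complement CTTCCT, the core of ETS-family sites with flanking bases.
Cd3g, chr9:44980382-44980681, minus strand: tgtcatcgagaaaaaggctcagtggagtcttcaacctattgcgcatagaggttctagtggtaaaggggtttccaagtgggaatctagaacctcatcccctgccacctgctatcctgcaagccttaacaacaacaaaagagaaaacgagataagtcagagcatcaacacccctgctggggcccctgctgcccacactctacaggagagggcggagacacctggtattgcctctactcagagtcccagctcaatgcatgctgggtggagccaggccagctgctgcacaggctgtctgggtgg
Cd3d, chr9:44981536-44981835, plus strand: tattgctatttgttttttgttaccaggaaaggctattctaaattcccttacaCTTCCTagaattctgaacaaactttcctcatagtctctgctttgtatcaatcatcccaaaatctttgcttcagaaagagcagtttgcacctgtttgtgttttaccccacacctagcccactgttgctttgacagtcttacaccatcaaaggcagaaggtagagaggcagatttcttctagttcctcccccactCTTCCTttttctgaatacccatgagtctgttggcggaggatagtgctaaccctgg
Cd3e, chr9:45009562-45009861, minus strand: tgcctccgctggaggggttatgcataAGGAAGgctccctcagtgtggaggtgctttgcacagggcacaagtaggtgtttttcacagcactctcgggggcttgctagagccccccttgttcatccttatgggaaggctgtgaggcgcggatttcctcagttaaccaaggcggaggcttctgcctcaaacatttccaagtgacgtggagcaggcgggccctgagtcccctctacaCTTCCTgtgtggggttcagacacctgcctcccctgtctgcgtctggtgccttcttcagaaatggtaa
The window of Cd3g holds no such match, and those of Cd3d and Cd3e hold 2 each. None of the 3 windows holds TATAAA on either strand, which 13.6% of all 32851 mouse windows do. Over all 9 genes, 7 have a window with AGGAAG on either strand, against 35.4% of all windows; Cd3g and Plcg1 have none. The 9 genes have 12 windows between them, since Lck has 2 and Zap70 has 3, so a gene with several had more chances of a match. TGTGGT, the core of RUNX sites, is in windows of Lat, Lck and Zap70 (16.8% of all windows), CTTTGA, bound by TCF and LEF factors, in windows of Cd247, Cd3d, Lcp2 and Zap70 (16.0%), and AGATAA, bound by GATA factors, in those of Cd3g and Lcp2 (11.2%). These 5 motifs were searched on both strands, and none contains another. A match describes the letters and is not evidence of binding.

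Cd3e, whose chain pairs with both delta and gamma, was at 567, 555 and 542 CPM in KO and 607, 513 and 484 CPM in WT libraries. The KO values sat inside the WT range, and the highest library of all was WT replicate 1. The fitted log2 difference was 0.05 with an SE of 0.091 (edgeR, Benjamini-Hochberg adjusted p = 0.924). Cd3d, the chain that pairs with epsilon next to the alpha chain, was at 406, 420.1 and 383 CPM in KO and 434, 343 and 377 CPM in WT libraries, again with WT replicate 1 highest. Its difference was 0.07 on the log2 scale, SE 0.094 (adjusted p = 0.897 in edgeR). Cd3g, the other partner of epsilon, was at 473, 508 and 471 CPM in KO and 547, 449 and 448 CPM in WT libraries. Its mean was 484 ± 20.5 CPM in KO and 481 ± 56.8 CPM in WT (SD, n = 3 each), and the log2 fold change of 0.01 was the smallest of the CD3 chains (edgeR adjusted p = 0.989).

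Cd247 (chromosome 1, 165788681 to 165877277, plus strand) encodes the zeta chain, which carries more tyrosine motifs than the other chains and is the one whose supply limits receptor assembly in T cells. It was at 632, 612 and 602 CPM in KO and 626, 537 and 555 CPM in WT libraries. WT replicates 2 and 3 lay below all KO libraries and WT replicate 1 lay among them. On the log2 scale KO exceeded WT by 0.10 (95% interval -0.07 to 0.28), which did not pass (adjusted p = 0.805 in edgeR). In GENCODE M21 Pou2f1 on the opposite strand shares 3007 exonic bases with Cd247, and the strand setting of the counting is not given, so some reads there could belong to either gene. Pou2f1 had 19706 counts in all, against 111893 for Cd247.

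The balance of the CD3 chains was compared within each library. Counts of Cd247 per count of Cd3e were 1.11, 1.10 and 1.11 in KO and 1.03, 1.05 and 1.15 in WT libraries. Counts of Cd3d per count of Cd3e were 0.727 ± 0.027 in KO and 0.721 ± 0.055 in WT, and those of Cd3g per count of Cd3e were 0.873 ± 0.041 in KO and 0.90 ± 0.025 in WT (SD, n = 3 each). The groups overlapped for all 3 ratios. No length correction enters these ratios, so they compare libraries and not the amounts of the chains.

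**Figure D2:**
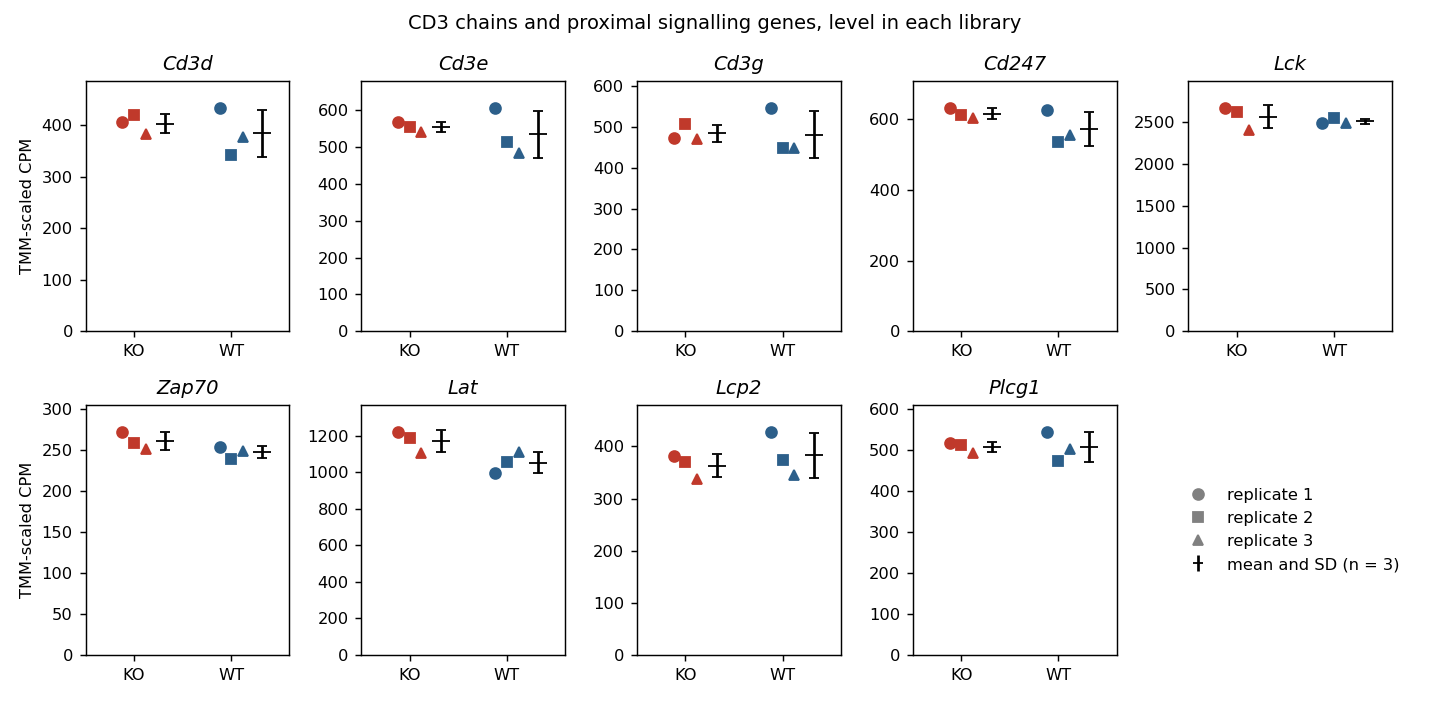
TMM-scaled CPM of each gene in every library, with KO left of WT, the shape of a point giving its replicate and the bars giving the mean and SD of 3 libraries. In WT the circle, replicate 1, is highest for 7 of 9 genes, and in KO the triangle, replicate 3, is lowest for 9 of 9.

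Lck (chromosome 4, 129548344 to 129573641, minus strand) encodes the kinase that starts the relay and had the most counts of the 9, with 72880 to 84922 per library. It was at 2669, 2623 and 2404 CPM in KO and 2485, 2545 and 2489.6 CPM in WT libraries. All 3 WT values lay inside the KO range, and the fitted difference was 0.03 (log2, SE 0.067, adjusted p = 0.938 in edgeR). Mouse Lck is known to start from a distal promoter and from a proximal one next to the coding exons, which is used in thymocytes. The counts are per gene and cannot separate them. Both windows are printed for that reason, with the same capitals as above and the proximal one first.
Lck proximal, chr4:129558323-129558622, minus strand: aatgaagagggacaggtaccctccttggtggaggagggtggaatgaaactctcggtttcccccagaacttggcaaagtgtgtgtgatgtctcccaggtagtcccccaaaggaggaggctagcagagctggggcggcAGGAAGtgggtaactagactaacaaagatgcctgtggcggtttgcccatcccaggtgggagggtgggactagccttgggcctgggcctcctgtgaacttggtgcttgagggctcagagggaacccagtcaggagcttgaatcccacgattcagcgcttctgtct
Lck distal, chr4:129573592-129573891, minus strand: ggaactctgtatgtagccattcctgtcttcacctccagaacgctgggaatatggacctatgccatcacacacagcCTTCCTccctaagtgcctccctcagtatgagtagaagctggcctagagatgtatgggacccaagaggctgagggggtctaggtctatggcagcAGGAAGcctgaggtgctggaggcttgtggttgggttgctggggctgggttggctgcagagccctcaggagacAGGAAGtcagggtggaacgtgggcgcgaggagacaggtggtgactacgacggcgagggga
The proximal window holds 1 AGGAAG and the distal window 3 on either strand.

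Zap70 (chromosome 1, 36761798 to 36782818, plus strand) was at 272, 258 and 251 CPM in KO and 253, 239 and 249 CPM in WT libraries. The highest 2 libraries were KO and the groups overlapped only through KO replicate 3 and WT replicate 1. The difference of 0.08 (log2) had the smallest SE of the 9, 0.062, and an adjusted p of 0.827 in edgeR. Its relative Syk, used in place of Zap70 in B and myeloid cells and present in immature thymocytes, was at 71.6 ± 4.84 CPM in KO and 73.6 ± 2.28 CPM in WT (SD, n = 3 each, edgeR adjusted p = 0.937).

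Lat (chromosome 7, 126363832 to 126369543, minus strand) had the largest difference of the 9. It was at 1224, 1186 and 1108 CPM in KO and 995, 1055 and 1111 CPM in WT libraries. Only KO replicate 3 and WT replicate 3 kept the groups from separating. The mean was 1172 ± 59.0 CPM in KO and 1054 ± 58.4 CPM in WT (SD, n = 3 each), 11.3% higher in KO. The log2 fold change of 0.15 (SE 0.072, 95% interval -0.01 to 0.32) did not pass (edgeR adjusted p = 0.75, unadjusted p = 0.0652), and its adjusted p ran from 0.381 to 0.999 over 15 other settings. Leaving out each library in turn gave differences of 0.11 to 0.20, and leaving out both overlapping libraries, which widens the gap by construction, gave 0.24. In the authors' deposited table Lat has a log2 fold change of 0.16 (adjusted p = 0.786). WT replicate 1, the highest WT library for 7 of the 9 genes (it was so for 40.9% of all tested genes), was the lowest for Lat.

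Lcp2 (chromosome 11, 34046920 to 34092295, plus strand), which encodes SLP-76, was the only gene with a fitted value below 0. It was at 381, 369.7 and 338 CPM in KO and 429, 375 and 345 CPM in WT libraries, a log2 difference of -0.08 (adjusted p = 0.883 in edgeR). Leaving out WT replicate 1, the highest library for Lcp2, raises the difference by construction and gave a log2 fold change of 0.01. Plcg1 (chromosome 2, 160731300 to 160775760, plus strand) was at 517, 511 and 493 CPM in KO and 544, 472 and 501 CPM in WT libraries, and its log2 fold change of 0.003 was the closest to 0 of the 9 (adjusted p = 0.994 in edgeR). Counts of Lat per count of Plcg1 were 2.37, 2.32 and 2.25 in KO and 1.83, 2.24 and 2.22 in WT libraries. This ratio, 1 of 6 computed, did not overlap between the groups, and its lowest value was in WT replicate 1. In GENCODE M21 Plcg1 shares 379 exonic bases with Zhx3 on the opposite strand.

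Levels of different genes can be compared only per length, and the length chosen mattered. Per kilobase of the principal coding transcript in GENCODE M21, the order by mean level in KO libraries was Lck, Lat, Cd3g, Cd3e, Cd247, Cd3d, Zap70, Lcp2 and Plcg1, and the order in WT libraries was the same. Lck was at 1174 ± 64.8 CPM per kilobase in KO and 1147 ± 15.3 in WT, and Plcg1 at 99.2 ± 2.40 in KO and 99.0 ± 7.12 in WT (SD, n = 3 each). Among neighbours in this order, Cd3e and Cd247 overlapped in both genotypes, as did Lcp2 and Plcg1, and Zap70 and Lcp2 overlapped in WT libraries and not in KO libraries. The receptor chains sat between the kinase and membrane adaptor above them and Zap70, Lcp2 and Plcg1 below. With the gene lengths of the deposited count table the order began with Lat, Cd3e and Cd3d, and Lck was at rank 4 in KO and rank 5 in WT libraries. Those lengths are 15786 bases for Cd247 and 9143 for Lck, where the principal transcripts have 1632 and 2185. None of the 9 equals the summed exons of the gene in GENCODE M21, and the annotation behind them is not given.

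**Figure D3:**
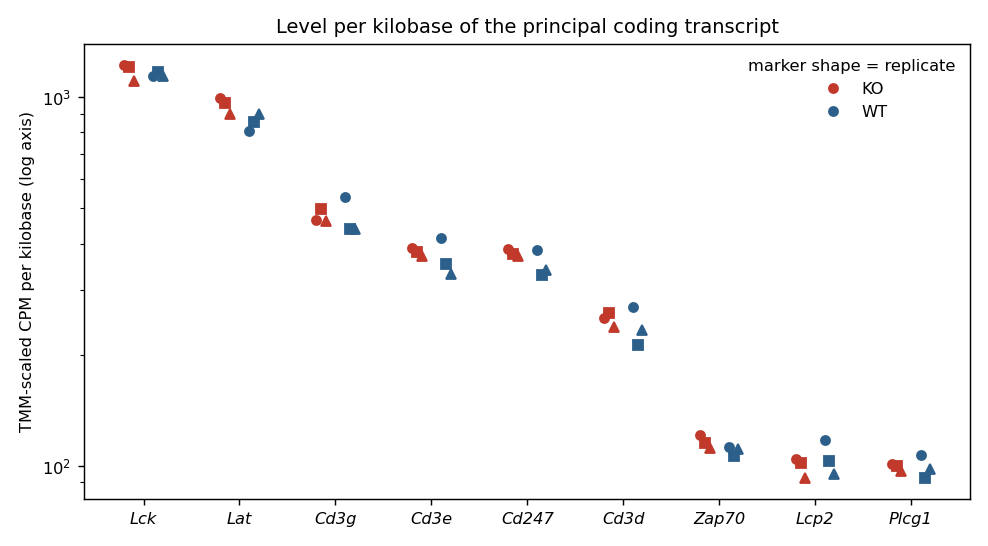
TMM-scaled CPM per kilobase of the principal coding transcript on a log axis, KO left of WT for each gene, with the shape of a point giving its replicate. Lck and Lat stand above the 4 receptor chains, and Zap70, Lcp2 and Plcg1 stand lowest, in both genotypes.

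Many of the 9 genes were high or low in the same libraries of a genotype. WT replicate 1 was the highest of all 6 libraries for 5 of 9 genes (Cd3d, Cd3e, Cd3g, Lcp2 and Plcg1), where it was so for 27.7% of all tested genes. The median deviation of the 9 from their WT means was 0.13 (log2 CPM) in WT replicate 1, -0.05 in WT replicate 2 and -0.02 in WT replicate 3. KO replicate 3 was the lowest KO library for all 9, against 33% of tested genes, with a median deviation of -0.05 from the KO means. The coefficient of variation of the CD3 delta, epsilon and gamma genes was 2.29% to 4.62% in KO and at least 11.8% in WT libraries. Without WT replicate 1 the log2 fold changes were 0.16 for Cd3d, 0.15 for Cd3e, 0.11 for Cd3g and 0.17 for Cd247, and none passed. That library was the highest WT library for these genes, so leaving it out raises their differences by construction. Cd247 came nearest, with an unadjusted p of 0.0244 and an adjusted p of 0.582 in edgeR.

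**Figure D4:**
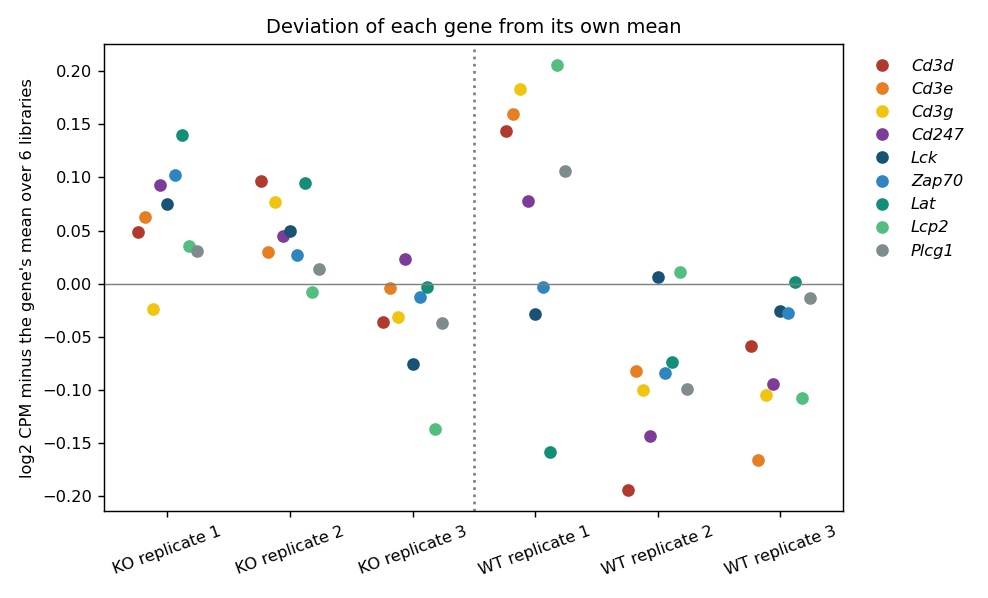
Log2 CPM of each gene minus its mean over the 6 libraries, by library, KO replicates left of WT replicates. In WT replicate 1 the CD3 chain genes, Lcp2 and Plcg1 lie above 0, and Lat (-0.159), Lck (-0.028) and Zap70 (-0.004) lie below it.

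Over the 6 libraries, the 6 pairs among the 4 receptor chain genes had Pearson correlations of log2 CPM between 0.724 and 0.89, and between 0.657 and 0.882 without WT replicate 1. The 36 pairs among all 9 genes ran from -0.437 (Lat with Lcp2) to 0.936 (Cd3d with Plcg1), with a median of 0.587. These values describe 6 libraries that share 2 genotypes, and they are not tested. Outside the 9, the genes whose log2 CPM followed the mean of the 9 most closely, among 6155 genes whose average log2 CPM was 5 or more, were Tbc1d22a (r = 0.984), Pim3 (0.981), Tnrc18 (0.98), Klf3 (0.967) and Sin3b (0.966). In all, 88 genes had a correlation above 0.9 with that mean.

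The letters GGACT, a frequent form of the sequence that carries N6-methyladenosine, were counted in the principal transcripts. Methylation was not measured in these libraries. GGACT was present in 7 of 9 transcripts and in 92.0% of the 11260 tested coding genes with a principal transcript. Plcg1 had 10 matches, Zap70 and Lcp2 had 3 each, Cd3g had 2, and Cd247, Lck and Lat had 1 each, while Cd3d and Cd3e had none. The median was 0.81 per kilobase over the 9 and 1.05 over all. The match nearest to the stop codon is shown for the 5 genes in which the window of 21 bases lies in 1 exon, since this mark is known to be frequent near stop codons. Capitals mark GGACT, and coordinates are on mm10.
Lat, chr7:126364006-126364026, minus strand: ctgaaactGGACTtgctgggg
Lck, chr4:129548692-129548712, minus strand: gcacacatGGACTctgactct
Cd247, chr1:165861241-165861261, plus strand: tcatccctGGACTctctaaag
Plcg1, chr2:160762097-160762117, plus strand: cccaagaaGGACTcgggtcaa
Zap70, chr1:36781361-36781381, plus strand: gaggtcctGGACTtcatcaag
Those of Lat, Lck and Cd247 lie after the stop codon, by 33, 96 and 182 bases. Those of Plcg1 and Zap70 lie before it, by 29 and 211 bases.

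The genes around the 9 in the pathway were read from 5 lists, and 0 of their 71 tested genes passed the threshold in edgeR, DESeq2, limma-voom or the authors' deposited table. In edgeR 9 of the 71 had an unadjusted p under 0.05, where 6.72% of all tested genes did and 48.9% lay above 0. Of the 23 coreceptor and other proximal genes, 18 lay above 0 and 5 below, with a median log2 fold change of 0.05, against 48.9% of all tested genes above 0. Upper-quartile scaling left 15 above 0 and library totals 14. The 48.9% belongs to the main scaling, and these scalings lowered the median of all tested genes from -0.004 to -0.027 and -0.032. In this list 1 gene had an unadjusted p under 0.05, against 6.72% of all genes. Sh2d2a, which encodes an adaptor that binds Lck, was at 347, 314 and 297 CPM in KO and 257, 235 and 284 CPM in WT libraries, without overlap (log2 fold change 0.30, SE 0.092, edgeR adjusted p = 0.63). The adaptor genes Nck1 and Nck2 had values of 0.32 (SE 0.138) and 0.17 (SE 0.073) (edgeR adjusted p = 0.733 and 0.738). Of the 4 partner chains, Ptcra, the alpha chain of the pre-receptor, was at 54.1, 47.0 and 51.8 CPM in KO and 40.5, 37.1 and 42.0 CPM in WT libraries, without overlap (log2 fold change 0.35, edgeR adjusted p = 0.488). The constant-region genes Trac (-0.15) and Trbc2 (0.08) overlapped.

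Among 19 genes listed for the Ras, protein kinase C and calcium release steps, 14 lay above 0 and 5 below. Their median was 0.03, and 48.9% of all tested genes lay above 0. An unadjusted p under 0.05 was found for 4 of them, 3 higher and 1 lower, against 6.72% of all genes. With upper-quartile scaling or library totals 10 of the 19 lay above 0 and 2 had such a p. Those scalings also lowered the median of all tested genes, as given above. Pdpk1, a kinase that activates protein kinase C and Akt, was at 274 ± 5.56 CPM in KO and 312 ± 16.1 CPM in WT (log2 fold change -0.19, edgeR adjusted p = 0.695). The kinase gene Map2k2 was at 0.15 and Bcl10, an adaptor of the NF-kappaB branch, at 0.19 (edgeR adjusted p = 0.725 for both). Among 16 negative regulators the median was 0.07, with 12 above 0, or 10 with upper-quartile scaling or library totals. Ubash3a, of the Sts family that dampens receptor signalling, was at 101 ± 9.68 CPM in KO and 128 ± 7.91 CPM in WT (SD, n = 3 each; log2 fold change -0.35, edgeR adjusted p = 0.54), without overlap. Its paralog Ubash3b was at 2.52 ± 0.646 CPM in KO and 3.71 ± 0.541 CPM in WT (SD, n = 3 each; edgeR adjusted p = 0.749). Pag1, which holds the inhibitory kinase Csk at the membrane, was at 0.16 (edgeR adjusted p = 0.763).

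**Figure D5:**
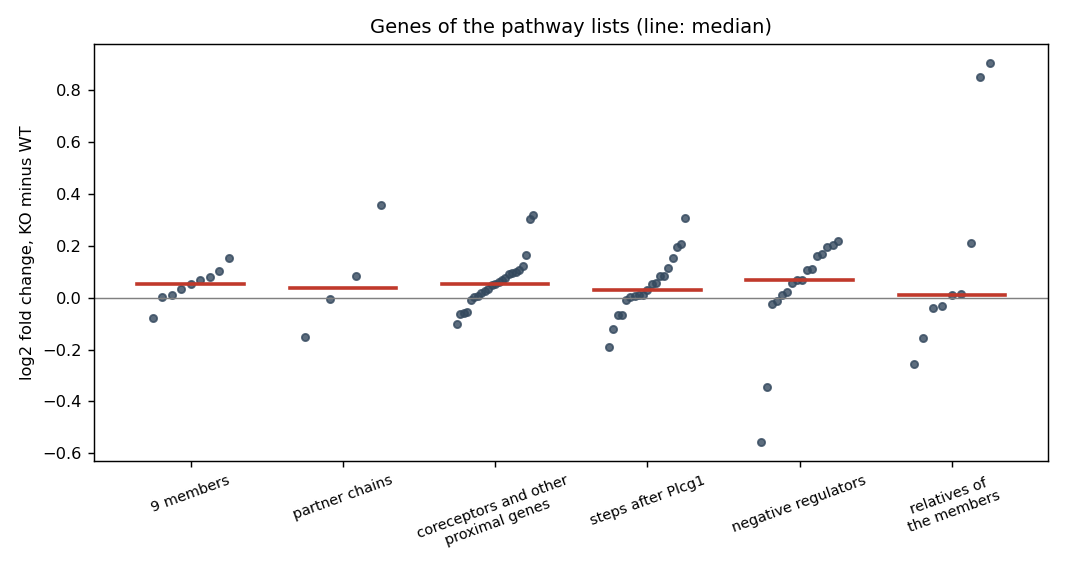
Log2 fold change (KO minus WT) of each tested gene in the pathway lists, 1 point per gene, with a line at the median of each list. The medians lie between 0.009 and 0.07 (that of the relatives was -0.015 with upper-quartile scaling and -0.022 with library totals), and the 2 points above 0.8 are the low-abundance genes Lyn and Fcer1g.

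The 9 genes have relatives that do the same work in B cells, mast cells and myeloid cells. Of 12 looked for, 9 passed the filter on low counts, and 7 had a median under 1 CPM over the 6 libraries. The summed level of the 12 was 104 to 108 CPM in KO and 107 to 113 CPM in WT libraries. Most of it was Syk, given above, and Fgr, at 24.0 ± 4.75 CPM in KO and 26.7 ± 2.43 CPM in WT (SD, n = 3 each). Plcg2 was at 2.91 ± 1.03 CPM in KO and 2.98 ± 0.512 CPM in WT, Lat2 at 2.09 ± 0.51 CPM in KO and 2.07 ± 0.23 CPM in WT, and Blnk at 1.26 ± 0.671 CPM in KO and 1.08 ± 0.588 CPM in WT (SD, n = 3 each). Lyn was at 1.19, 1.86 and 2.39 CPM in KO and 1.11, 0.606 and 1.20 CPM in WT libraries, and Fcer1g, which resembles the zeta chain, at 0.398, 0.711 and 0.527 CPM in KO and 0.322, 0.272 and 0.307 CPM in WT libraries. Neither passed (edgeR adjusted p = 0.733 for both). Summed markers of B cells (6 genes) were at 20.4 to 28.8 CPM in KO and 17.2 to 25.1 CPM in WT libraries, and those of myeloid and dendritic cells (7 genes) at 89.7 to 112 CPM in KO and 86.3 to 90.9 CPM in WT libraries. NK cell markers (5 genes) were at 39.1 to 47.8 CPM in KO and 26.4 to 40.4 CPM in WT libraries, and mature single-positive markers (8 genes) at 255 to 290 CPM in KO and 257 to 270 CPM in WT libraries. Stromal and endothelial markers (7 genes, with Foxn1 and Pdgfra at 0) were at 149 to 160 CPM in KO and 153 to 180 CPM in WT libraries, nearly all from Pecam1, and red cell markers (5 genes) stayed under 1 CPM. Markers of the preceding double-negative stage (7 genes, Ptcra among them) summed to 179 to 230.2 CPM in KO and 149 to 158 CPM in WT libraries, without overlap. Most of this sum was Notch3, at 136 ± 23.8 CPM in KO and 98.7 ± 2.53 CPM in WT (SD, n = 3 each). Of the 6 that were tested 5 lay above 0 (48.9% of all tested genes), and Kit (-0.33) and Il2ra (0.25) overlapped. EdgeR called 0 (0.0383% of all tested genes), and 4 had an unadjusted p under 0.05 (6.72%). For 4 every KO library lay above every WT library (6.59%). DESeq2 called 2 (0.733% of the genes it tested), Tcrg-C1 (adjusted p = 0.0102) and Tcrg-C2 (0.00292). The authors' deposited table also calls 2 (0.762% of its genes), both of low level. Tcrg-C1 averaged 2.38 CPM in KO and 0.863 CPM in WT, and Tcrg-C2 2.42 and 0.838 CPM. The part of any of these cells in the levels of the 9 genes was not tested.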

How the data were processed

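RNA from sorted double-positive thymocytes was made into TruSeq libraries, as the labels' protocols state. The submitters' processing notes name Trimmomatic 0.33, STAR 2.5.2, HTSeq, DESeq2 and mm10. Counting mode, strand setting and annotation release: not given in the sources used here. The authors deposited raw counts per gene, and a signal in which those counts are scaled by a size factor for each library. The authors also deposited log2 fold changes with p-values and adjusted p-values, in a table whose name calls it paired; no label says what was paired. Rows that name no gene were left out: per library, reads without a feature were 12.3% to 15.2%, multiply aligned reads 22.6% to 23.9%, and ambiguous ones 0.653% to 0.701%. Of 43430 identifiers, 42462 matched the name table.

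The main test was edgeR 4.0.16 under R 4.3.3 on the raw counts: TMM scaling, the filterByExpr filter, a quasi-likelihood fit with genotype as its only term, two-sided, and Benjamini-Hochberg adjustment over 13039 genes at 0.05. SEs were derived from the fitted difference and its F statistic. Log2 CPM used a prior count of 2. DESeq2 1.42.0, limma-voom (limma 3.58.1), other scalings, no filter, replicate blocks and leaving out libraries were the alternatives. The fit was first tested on simulated data. Replicate pairs of a genotype differed beyond sampling noise (chi-square per degree of freedom of at least 16.1). The 9 genes, the lists and the tests were chosen with earlier results of these data known. Beside the 9 and Mettl14, the genes named were the 3 of lowest p in each pathway list, the relatives, and the 5 most alike in pattern. Promoters are from RefSeq (9 of 9 genes matched) and transcripts from GENCODE M21, where 77.1% of identifiers have the coordinates of the count table. A marker of the double-positive list is not reported here.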

Additional observations from a re-analysis of the deposited data

How the results depend on the processing

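None of the 9 genes passed in edgeR's test or under any of 15 alternatives, and Cd247, Lck, Zap70 and Lat kept their direction in all of them. Upper-quartile scaling turned Cd3g to -0.015, Plcg1 to -0.020 and Lat2 to -0.0068 (log2 fold change, KO minus WT), and library totals alone turned them to -0.021, -0.026 and -0.012. Lat2 was also at -0.0068 with limma-voom and -0.0076 with the replicate block, and Cd3g at -0.019 within replicates 1 and 2. The same scalings moved the median of all tested genes, from -0.0040 to -0.027 with upper-quartile scaling and -0.032 with library totals. The cause of each sign change was not tested. Leaving out each library in turn gave ranges of -0.0083 to 0.16 for Cd3d, -0.0070 to 0.15 for Cd3e, -0.038 to 0.11 for Cd3g, -0.14 to 0.012 for Lcp2, -0.044 to 0.059 for Plcg1, -0.25 to 0.029 for Trac, -0.083 to 0.019 for Syk, -0.16 to 0.19 for Lat2, -0.25 to 0.76 for Blnk and -0.20 to 0.24 for Plcg2. The genes called over the whole table were 5, against 30 without a filter on low counts, 110 with DESeq2 and 4 to 23 with a library left out; without WT replicate 3 they were 23, without KO replicate 2 14 and without WT replicate 1 8. The median of the genes listed for the Ras, protein kinase C and calcium release steps was 0.029, against 0.0073 with upper-quartile scaling, 0.0016 with library totals, 0.042 without a filter, 0.059 within replicates 1 and 2, and 0.022 to 0.065 with a library left out. The median of the relatives ranged from -0.15 to 0.14. Mettl14 passed with DESeq2 and in the authors' deposited table, and not in edgeR or limma-voom.

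Replicate numbers recur in both genotypes. The deviations of same-numbered libraries correlated at -0.149, 0.0796 and 0.192. The last, of replicate 3, was the highest of all KO with WT pairs, but not every library correlated best with its own number. The numbers were not taken to pair the libraries. With 3 libraries in each genotype these correlations cannot exclude a pairing. With the replicate block 5 genes were called, and 5 with a 2-level block. The 95% intervals of the 9 genes had half-widths of 0.144 to 0.217 (log2), which is not the limit of a call after adjustment over all genes: Mettl14 at -0.49 did not pass in edgeR.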
